A study of Mus musculus with 13 samples.

Results

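The imprinted growth network is a set of mouse genes that are expressed mainly from 1 parental copy and that act on body growth. The 10 genes described here (Peg3, Dlk1, Mest, Plagl1, Cdkn1c, Grb10, Ndn, Sgce, Asb4 and H19) were chosen by symbol, as imprinted genes known to decline in many organs once postnatal growth slows. The choice was made with earlier results of these data known. Of the 18748 genes in the table, 9 were these genes, and H19 was not analysed here. Of these 9 genes, 8 had enough counts to be tested among 14067 tested genes, and Dlk1 did not. The measurements came from messenger RNA of the mandibular condylar cartilage of the temporomandibular (jaw) joint, which caps the lower jaw bone where it meets the skull. The study had 6 libraries from aged mice (18 months old), set against 7 libraries from young mice (2 months old). Strain, sex, genotype and any treatment are not given in the sources used here. Whether a library stands for 1 mouse or for pooled joints is not stated in the labels, so the p-values measure the spread between libraries, part of which may be technical.

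In genomic imprinting, a mark laid down in the egg or the sperm leaves a gene active mainly on the copy from 1 parent. Many genes active on the paternal copy promote fetal growth and many active on the maternal copy restrain it. A group of them is expressed together in fetal tissue and falls together after birth, and the zinc finger protein Plagl1 is known in the mouse to bind and activate several of the others. The condylar cartilage grows by endochondral ossification, a process in which the cell cycle inhibitor encoded by Cdkn1c is needed in mouse growth plates. The libraries measured total messenger RNA of each gene and carried no information on the parental copy.

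Summed expected counts were 16356839 to 17876681 per aged library and 17531694 to 18203443 per young library. Levels below are CPM, a library's counts of a gene set against its total and scaled by TMM, a normalisation that sets the bulk of genes equal between libraries. A call is an edgeR quasi-likelihood adjusted p under 0.05 over all tested genes. Over all tested genes there were 6504 calls, 3033 lower and 3471 higher in aged cartilage, and the median log2 fold change was 0.01. Scaling by library size alone moved that median to 0.24 and the split to 1253 lower and 7034 higher. The cartilage collagen Col2a1 and the bone collagen Col1a1 were present in every library, and both were lower with age. Col2a1 was at 4519, 5405 and 12666 CPM (lowest, median, highest) in aged libraries and at 19674, 24230 and 32981 CPM in young ones. Col1a1 was at 22776, 27953 and 31237 CPM in aged libraries and at 95526, 101692 and 116456 CPM in young ones.

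Markers of several cell types moved with age. All 12 erythroid markers were higher in every aged library than in any young one, with sums of 499 to 1828 CPM in aged and 32.9 to 236 CPM in young libraries. Skeletal muscle markers summed to 4671 to 17654 CPM in aged and 622 to 5664 CPM in young libraries, and 13 of 15 were called higher. Neutrophil markers summed to 1194 to 5796 CPM in aged and 586 to 1857 CPM in young libraries, with 9 of 11 called higher, and all 3 tested adipocyte markers of 7 named were called higher. Chondrocyte markers summed to 12699 to 27436 CPM in aged and 30576 to 46498 CPM in young libraries, with 9 of 12 called lower and 1 higher. Osteoblast markers summed to 31934 to 46077 CPM in aged and 110918 to 134710 CPM in young libraries, with 9 of 10 called lower. Sums of fibroblast and progenitor markers (548 to 925 CPM in aged, 679 to 886 CPM in young), endothelial markers (375 to 535 CPM in aged, 356 to 529 CPM in young) and muscle stem cell markers (4.97 to 8.06 CPM in aged, 3.79 to 9.06 CPM in young) overlapped between the ages. Of these, 1 of 9 fibroblast markers was lower and 2 higher, 2 of 7 endothelial markers were lower and 1 higher, and neither tested muscle stem cell marker was called. No marker in these lists was at 0 in all libraries. The muscle score and the erythroid and neutrophil score used as covariates below are the mean log2 CPM of those markers in each library. Because all 12 erythroid markers separated the ages, the second score overlaps with age. Age differences fitted beside it are therefore poorly determined, and a lost call or changed sign there may follow from that overlap. The muscle score also rose with age, though its marker sums overlapped between the ages, so a lost call beside it may likewise follow from that. In bulk RNA, fewer cells of a type and less RNA per cell cannot be told apart, and this holds for every gene below.

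Imprinted genes are often controlled at CpG-rich start regions, so start regions are shown for genes that fell and for the gene that rose. RefSeq windows on the mouse build GRCm38.p6, from 250 bases before to 50 bases after a start, were found for 7 of the genes, with 11 starts in all and 5 of these genes called lower. Methylation of CpG sites is the imprinting mark, and it was not measured in these libraries. Capitals mark each CG, and the sequence runs 5′ to 3′ on the strand of the gene. The first 3 belong to genes that were lower in aged cartilage and the last to the gene that was higher. Peg3 is at chr7:6730370-6730669 (minus strand), Plagl1 at chr10:13090582-13090881 (plus strand), Grb10 at chr11:12037371-12037670 (minus strand) and Asb4 at chr6:5383136-5383435 (plus strand).
Peg3: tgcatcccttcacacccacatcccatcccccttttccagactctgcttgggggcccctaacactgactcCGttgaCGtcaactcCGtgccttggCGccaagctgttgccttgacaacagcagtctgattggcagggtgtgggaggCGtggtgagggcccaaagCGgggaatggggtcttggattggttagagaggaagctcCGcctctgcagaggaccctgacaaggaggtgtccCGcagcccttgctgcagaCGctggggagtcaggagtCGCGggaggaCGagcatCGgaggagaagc
Plagl1: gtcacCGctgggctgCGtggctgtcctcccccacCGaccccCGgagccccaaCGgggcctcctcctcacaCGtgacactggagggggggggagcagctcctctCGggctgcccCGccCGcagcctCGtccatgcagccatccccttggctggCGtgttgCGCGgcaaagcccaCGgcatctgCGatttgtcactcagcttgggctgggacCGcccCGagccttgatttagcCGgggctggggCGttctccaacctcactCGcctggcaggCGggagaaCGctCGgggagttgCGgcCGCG
Grb10: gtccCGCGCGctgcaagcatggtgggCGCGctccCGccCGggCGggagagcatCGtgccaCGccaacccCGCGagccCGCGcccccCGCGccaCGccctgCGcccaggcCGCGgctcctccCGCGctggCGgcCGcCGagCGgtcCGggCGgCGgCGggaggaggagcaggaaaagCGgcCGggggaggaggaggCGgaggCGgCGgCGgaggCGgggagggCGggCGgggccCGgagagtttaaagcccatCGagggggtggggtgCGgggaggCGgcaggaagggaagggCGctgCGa
Asb4: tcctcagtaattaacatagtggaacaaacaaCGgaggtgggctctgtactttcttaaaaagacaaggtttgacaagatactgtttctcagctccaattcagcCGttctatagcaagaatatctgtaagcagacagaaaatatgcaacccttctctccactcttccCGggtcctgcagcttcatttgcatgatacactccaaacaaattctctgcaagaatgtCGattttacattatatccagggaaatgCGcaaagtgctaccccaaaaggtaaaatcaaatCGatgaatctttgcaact

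These windows differ widely in CpG content. The Grb10 window held 45 CGs, a number that 1.93% of the 32851 windows in the RefSeq table reached, and a second Grb10 start held 9. Plagl1 held 26 CGs (16.9% of windows held as many) and Peg3 held 13 (37.9%). The Asb4 window shown held 6 (56.4%) and a second Asb4 start held 8 (48.6%), against a median of 7 over all windows. So the genes called lower included windows both rich and ordinary in CpG. Of the motifs searched on both strands, GGGGCCCC, a core described for PLAGL1, was in the Peg3 window alone among the 11 and in 1.08% of all windows. The YY1 core GCCATNTT was in none of the 11 and in 6.05% of all windows, and TATAAA was in none of the 11 and in 13.6% of all. The SP1 box GGGCGG was in windows of Mest, Ndn, Plagl1 and the first start of Grb10, and in 35.7% of all windows. The GGGGCCCC and GGGCGG searches can overlap in GC-rich stretches, and a match describes letters only.

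Of the 8 tested genes, 6 were lower in aged cartilage under every scaling tried, 1 was higher and 1 was not called. Lower calls made up 21.6% of all tested genes, higher calls 24.7% and calls in either direction 46.2%. All 6 were lower by at least 2-fold, which 2.89% of all tested genes were. The 1 higher gene, Asb4, rose by over 2-fold, as did 8.67%, but passed the count minimum only through its aged libraries. Grb10 was short of 2-fold with library sizes alone (−0.81) and on the FPKM and TPM scales (−0.96 to −0.81), and Plagl1 on log2(FPKM + 1) (−0.92), with the calls unchanged. In 5 of the 8 every aged library was below every young one, a pattern of 10.9% of all tested genes, and in none was every aged library above every young one (8.28% of all). The median log2 fold change of the 8 was −1.29. Because the genes were chosen with earlier results of these data known, these counts describe the set and do not test it. By parental copy as known in the mouse, 4 of 5 tested paternally expressed genes were lower and 1 was not called, and of 3 tested maternally expressed genes 2 were lower and 1 was higher. Grb10 is counted as maternally expressed, as it is outside the brain.

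**Figure D1:**
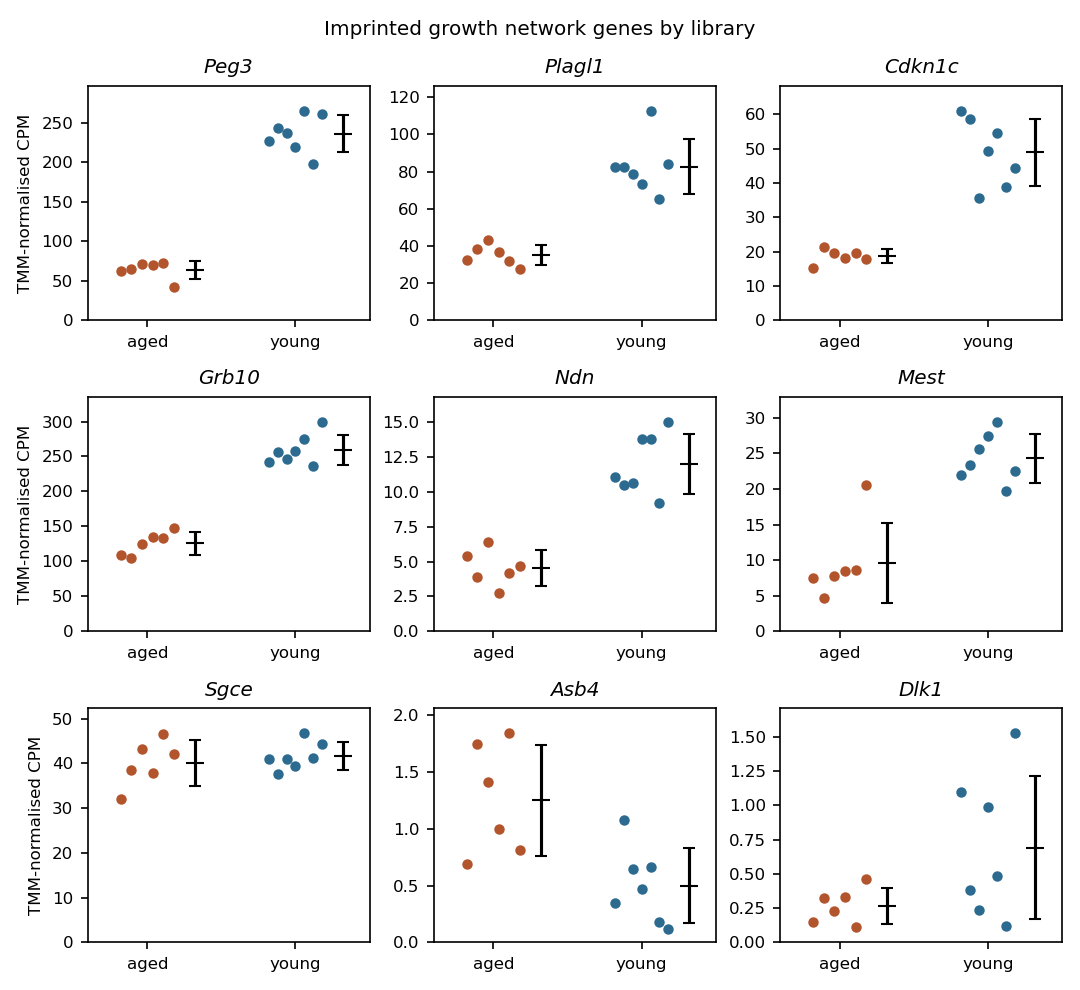
TMM-normalised CPM of the 9 measured genes in each library, aged left of young, with the mean and SD beside the points; each panel has its own axis starting at 0. Peg3, Plagl1, Cdkn1c, Grb10 and Ndn have no aged point above any young point, while Mest overlaps through 1 aged library at 20.6 CPM.

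Both zinc finger regulators of the set were lower. Peg3 (gene ID 18616), a zinc finger protein that binds DNA and represses target genes in the mouse, was at 42.3, 67.6 and 72.7 CPM (lowest, median, highest) in aged libraries and at 199, 238 and 265 CPM in young ones. The highest aged library was far below the lowest young one. Its log2 fold change was −1.88 ± 0.12 (SE, 95% interval −2.13 to −1.63, edgeR adjusted p = 8.42e-08), which only 0.469% of tested genes matched or went below. Plagl1 (gene ID 22634), whose protein can arrest the cell cycle and switch on other genes of the network, was at 27.7, 34.6 and 43.2 CPM in aged libraries and at 65.5, 82.3 and 113 CPM in young ones. The groups did not overlap, and the aged libraries lay closer together in CPM than the young. The difference was −1.24 ± 0.12 on the log2 scale (SE, 95% interval −1.50 to −0.97, edgeR adjusted p = 4.03e-06).

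The growth inhibitors of the set were lower too. Cdkn1c (gene ID 12577) encodes p57, which blocks cyclin-dependent kinases and lets cells leave the cell cycle. It was at 15.2, 19 and 21.4 CPM in aged libraries and at 35.6, 49.4 and 60.9 CPM in young ones. No aged library reached the lowest young one, and young libraries were the more widely spread, with an SD of log2 CPM of 0.17 in aged and 0.30 in young. The log2 fold change was −1.39 ± 0.13 (SE, 95% interval −1.66 to −1.11, edgeR adjusted p = 2.28e-06). Grb10 (gene ID 14783) encodes an adaptor that binds the insulin and IGF1 receptors and dampens their signal. It was at 105, 129 and 148 CPM in aged libraries and at 237, 256 and 299 CPM in young ones, with a wide gap between the groups. The log2 fold change was −1.04 ± 0.09 (SE, 95% interval −1.23 to −0.86, edgeR adjusted p = 7.60e-07), the smallest of the 6 falls.

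Ndn and Mest had lower counts. Ndn (gene ID 17984), which encodes necdin, a MAGE family protein that restrains proliferation in differentiated neurons, was at 2.72, 4.42 and 6.39 CPM in aged libraries and at 9.18, 11.1 and 15 CPM in young ones. The groups did not overlap. On the log2 scale it fell by 1.4 ± 0.18 (SE, 95% interval −1.78 to −1.02, edgeR adjusted p = 2.93e-05). Mest (gene ID 17294), which encodes a hydrolase-like protein of the endoplasmic reticulum and is active on the paternal copy, was at 4.74, 8.09 and 20.6 CPM in aged libraries and at 19.7, 23.3 and 29.4 CPM in young ones. Of the aged libraries 5 were below every young one, and aged replicate 6 at 20.6 CPM was inside the young range. The log2 fold change was −1.34 ± 0.26 (SE, 95% interval −1.90 to −0.77, edgeR adjusted p = 0.00101), and it was −1.72 (edgeR adjusted p = 1.57e-06) without aged replicate 6. With the erythroid and neutrophil score it was −2.13 (edgeR adjusted p = 0.0177), and with the muscle score −1.05 (edgeR adjusted p = 0.0441). Aged replicate 6 also had the lowest Peg3 of the aged group, the lowest chondrocyte sum at 12699 CPM and the highest neutrophil sum at 5796 CPM and fibroblast sum at 925 CPM of the aged libraries. Their part in the Mest value was not tested.

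Sgce did not show the fall. Sgce (gene ID 20392) encodes epsilon-sarcoglycan, a membrane protein of dystrophin-associated complexes, and lies in the same imprinted domain as Peg10 and Asb4. It was at 32, 40.3 and 46.7 CPM in aged libraries and at 37.7, 41.0 and 46.8 CPM in young ones, so the groups overlapped over almost their whole range. The log2 fold change was −0.06 ± 0.08 (SE, edgeR adjusted p = 0.593), and its 95% interval of −0.23 to 0.12 does not reach a 2-fold change. It was above 0 when library sizes alone set the scale (0.17, edgeR adjusted p = 0.0674), a scale on which the median of all genes was 0.24.

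Asb4 moved the other way, at very low levels. Asb4 (gene ID 65255) encodes an ankyrin repeat protein with a SOCS box, which recruits a ubiquitin ligase. It was at 0.689, 1.21 and 1.84 CPM in aged libraries and at 0.122, 0.467 and 1.07 CPM in young ones. Of the aged libraries, 3 were above every young one, and 6 young libraries below every aged one, so the groups overlapped through young replicate 2. These levels rest on 14 to 33 counts per aged library and 2 to 17 per young library. Asb4 thus passed the count minimum only through the group where it was higher, and its call and its ratios carry that selection. The log2 fold change was 1.31 ± 0.40 (SE, 95% interval 0.46 to 2.16, edgeR adjusted p = 0.015), and 6.13% of tested genes rose as much or more. The 3 aged libraries with the highest Asb4 were those with the highest summed muscle markers, at 14512, 15284 and 17654 CPM, and young replicate 2 had the highest muscle sum of the young libraries at 5664 CPM. Young replicate 4 had the next highest young muscle sum at 4434 CPM, with Asb4 at 0.467 CPM, the young median. With the muscle score as a covariate the Asb4 log2 fold change was 0.12 (edgeR adjusted p = 0.892). With the erythroid and neutrophil score it was 2.19 (edgeR adjusted p = 0.0725), and on log2(FPKM + 1) it was 0.32 (limma adjusted p = 0.00424). Both scores rose with age, so an age difference fitted beside either is less well determined. The part of muscle in the Asb4 rise was not tested.

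**Figure D2:**
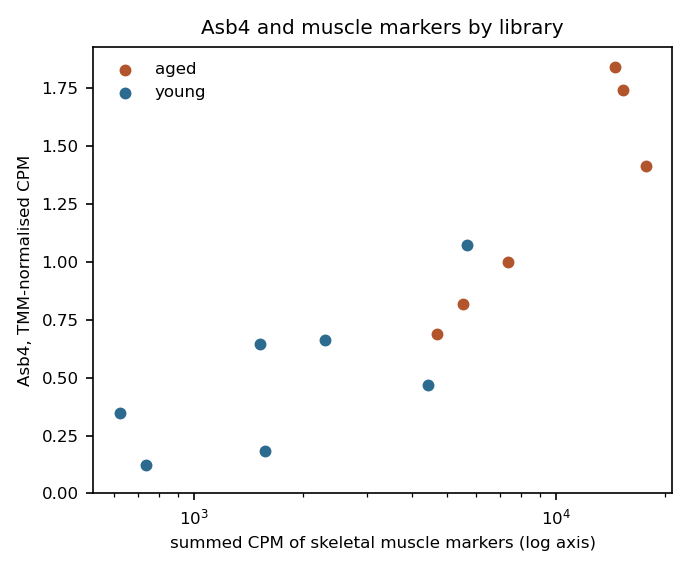
Asb4 in TMM-normalised CPM against the summed CPM of 15 skeletal muscle markers (log axis), 1 point per library, aged and young by colour. The 3 aged libraries at 1.41 to 1.84 CPM of Asb4 lie at the highest muscle sums, and the highest young library, at 1.07 CPM, has the highest muscle sum of its group.

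Dlk1 (gene ID 13386), a membrane protein with EGF-like repeats that holds back fat cell differentiation, was near the floor of detection. It was at 0.112, 0.277 and 0.460 CPM in aged libraries and at 0.122, 0.482 and 1.53 CPM in young ones, from 2 to 9 counts per aged library and 2 to 25 per young library. The groups overlapped, and 4 of 7 young libraries were above every aged one. Counts summed to 30 in the aged and 81 in the young libraries. Dlk1 was below the count minimum of the test, and in a fit with no filter it had a log2 fold change of −1.35 (edgeR adjusted p = 0.0592). Its young libraries were widely spread, with an SD of log2 CPM of 0.51 in aged and 1.03 in young.

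Per transcript length, in the authors' FPKM, Sgce and Grb10 stood highest in aged cartilage and Grb10 in young. In aged libraries the median level was 31.2 FPKM for Sgce and 28.5 FPKM for Grb10, whose ranges overlapped. Below them came Cdkn1c at 12.2 FPKM, then Peg3 at 8.06 and Plagl1 at 7.90 FPKM with overlapping ranges. Ndn at 3.53 and Mest at 2.80 FPKM overlapped each other, and so did Asb4 at 0.41 and Dlk1 at 0.20 FPKM. In young libraries Grb10 stood alone at a median of 48.9 FPKM, with no overlap with the next gene. Cdkn1c at 29.4, Sgce at 28.4, Peg3 at 24.6 and Plagl1 at 15.6 FPKM followed in a run of overlapping neighbours. Mest at 8.73 and Ndn at 8.09 FPKM overlapped, as did Dlk1 at 0.23 and Asb4 at 0.15 FPKM. Sgce thus ranked 1st in aged and 3rd in young, and Peg3 4th in both.

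The genes differed in how much libraries of the same age varied. The SD of log2 CPM of Peg3 was 0.29 in aged and 0.15 in young libraries, and that of Ndn was 0.41 in aged and 0.26 in young. Mest had an SD of 0.68 in aged and 0.20 in young libraries. Plagl1 was alike at 0.23 in aged and 0.24 in young, and Grb10 was at 0.19 in aged and 0.12 in young. Sgce was at 0.19 in aged and 0.10 in young, and Asb4, at its low counts, was at 0.53 in aged and 0.82 in young. Over all tested genes the median SD was 0.22 in aged and 0.14 in young libraries.

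Several of these genes have a neighbour in the same imprinted domain, and the log2 ratio of the 2 counts within a library does not depend on library scaling. Of 12 such pairs, 6 had both genes above the count minimum, and all 6 ratios differed by age in two-sided exact permutation tests over the 1716 splits, with Benjamini-Hochberg adjustment over the 6. The ratios among Sgce, Peg10 and Asb4 share genes, so they are not independent results. How often ratios of other gene pairs differ by age was not tested, and 46.2% of all tested genes were called. The 6 ratios are therefore not shown to be particular to imprinted domains. The pairs not tested were Peg3 with Usp29, H19 with Igf2, Dlk1 with Meg3, Cdkn1c with Phlda2, Ndn with Magel2 and Grb10 with Ddc. Meg3 was not analysed here.

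Zim1 (gene ID 22776), a zinc finger gene beside Peg3 that is active on the maternal copy, had the larger fall of the pair on the count scale. It was at 0.499, 0.662 and 1.75 CPM in aged libraries and at 8.69, 10.8 and 17.0 CPM in young ones, without overlap. It fell by 3.84 ± 0.27 on the log2 scale (SE, edgeR adjusted p = 3.05e-07), the 7th lowest of all tested genes, and by 2.84 with the erythroid and neutrophil score. Zim1 passed the count minimum only through the young libraries, where it was higher, so its rank and its ratio carry that selection. On log2(FPKM + 1), which understates the change of low genes, Zim1 was at −1.42 and Peg3 at −1.59. The log2 ratio of Peg3 to Zim1 was 6.35 ± 0.60 (SD, n = 6) in aged and 4.33 ± 0.27 (SD, n = 7) in young libraries, without overlap (difference 2.01, exact permutation p = 0.000583, the smallest possible, adjusted 0.000874). The difference was 1.27 on log2(FPKM + 0.1) and 1.36 on log2(CPM + 0.5), where the added constant weighs on the low Zim1 level.

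In the domain of Sgce, Peg10 and Asb4, Peg10 was lower, Asb4 was higher and Sgce was not called. Peg10 (gene ID 170676), a retrotransposon-derived gene needed in the placenta, was at 4.39, 5.56 and 6.38 CPM in aged libraries and at 11.5, 13.9 and 17.8 CPM in young ones. The groups did not overlap, and the log2 fold change was −1.37 ± 0.13 (SE, edgeR adjusted p = 2.65e-06). Sgce and Peg10 start next to each other in opposite directions and are both active on the paternal copy. Their log2 ratio was 2.87 ± 0.31 (SD, n = 6) in aged and 1.57 ± 0.27 (SD, n = 7) in young libraries, without overlap (difference 1.3, exact permutation p = 0.000583, adjusted 0.000874). The log2 ratio of Asb4 to Peg10 was −2.18 ± 0.62 (SD, n = 6) in aged and −4.99 ± 1.06 (SD, n = 7) in young libraries, again without overlap (difference 2.81, exact permutation p = 0.000583, adjusted 0.000874). The log2 ratio of Sgce to Asb4 was 5.05 ± 0.47 (SD, n = 6) in aged and 6.56 ± 1.05 (SD, n = 7) in young libraries, with overlap (difference −1.51, exact permutation p = 0.00699, adjusted 0.00699, and −0.89 on log2(CPM + 0.5)). The part of the muscle markers given above in both Asb4 ratios was not tested.

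Mest and Ndn also parted from their neighbours. Copg2 (gene ID 54160), a coat protein gene whose exons overlap those of Mest by 912 bases on the opposite strand, was at 33.3, 35.3 and 37.6 CPM in aged and at 32.9, 34.8 and 40.8 CPM in young libraries. The log2 difference between the ages, −0.03 ± 0.06 (SE), missed the threshold (edgeR adjusted p = 0.713). Scaled by library size only, it was 0.20 (edgeR adjusted p = 0.0216), below the median of all genes on that scale. The log2 ratio of Mest to Copg2 was −2.04 ± 0.68 (SD, n = 6) in aged and −0.59 ± 0.26 (SD, n = 7) in young libraries (difference −1.45, exact permutation p = 0.00175, adjusted 0.0021). The groups overlapped through aged replicate 6 at −0.80. The library kit kept strand, but the sources used here give no strand setting for the counting, so reads in the overlap could have been counted to either gene.

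Snrpn (gene ID 20646), a spliceosome gene of the same domain as Ndn, was higher in aged cartilage while Ndn was lower. Snrpn was at 3.27, 6.29 and 9.11 CPM in aged and at 1.90, 2.46 and 3.29 CPM in young libraries, which touched at the edge. It rose by 1.35 ± 0.24 on the log2 scale (SE, edgeR adjusted p = 0.000427), and by 2.1 (edgeR adjusted p = 0.00822) with the erythroid and neutrophil score. With the muscle score the rise was 1.13 (edgeR adjusted p = 0.0317). The log2 ratio of Ndn to Snrpn was −0.43 ± 0.47 (SD, n = 6) in aged and 2.27 ± 0.35 (SD, n = 7) in young libraries, without overlap (difference −2.70, exact permutation p = 0.000583, adjusted 0.000874). Snrpn shares 216 exon bases with Snurf on the same strand, so its level is uncertain where counting could split reads between them.

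**Figure D3:**
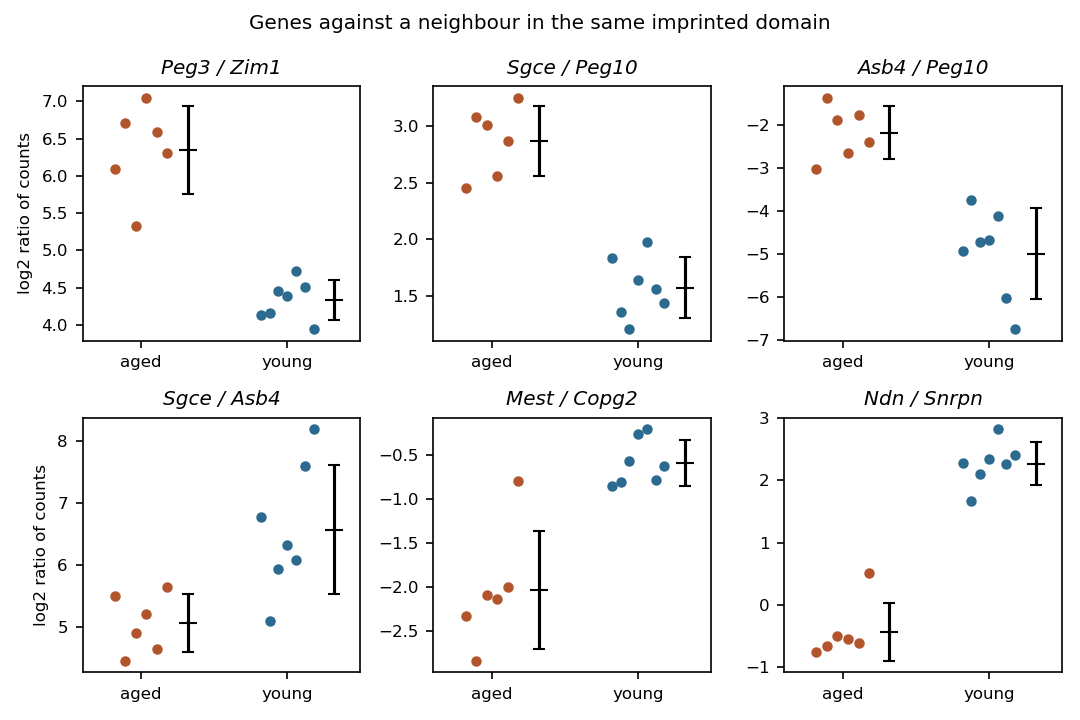
Log2 ratio of the counts of 2 genes of the same imprinted domain in each library (0.5 added to each count), aged left of young, with mean and SD; the axes do not start at 0. Peg3 to Zim1, Sgce to Peg10, Asb4 to Peg10 and Ndn to Snrpn separate the ages without overlap, and Mest to Copg2 overlaps through 1 aged library at −0.80.

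Other genes of the network were mostly called lower too, with a smaller median fall. Of 7 tested, 5 were lower, 1 was higher and 1 was not called, beside 21.6% lower and 24.7% higher over all tested genes. In 4 of the 7 every aged library was below every young one and in 1 every aged library was above, beside 10.9% and 8.28% of all tested genes. The median log2 fold change was −0.28, and with library sizes alone 3 were lower and 2 higher. Slc38a4, an amino acid transporter, had the largest fall at −2.51 ± 0.36 (SE, edgeR adjusted p = 8.78e-05), and −1.73 (edgeR adjusted p = 0.108) with the erythroid and neutrophil score and −1.02 on log2(FPKM + 1). Igf2 (gene ID 16002), the fetal insulin-like growth factor, was at 14.2, 19.9 and 24.4 CPM in aged libraries and at 42.7, 54.7 and 68.1 CPM in young ones, without overlap. The age difference in log2 units came to −1.41 ± 0.14 (SE, edgeR adjusted p = 3.66e-06). Igf2r, the receptor that clears Igf2, was at 233, 269 and 339 CPM in aged and at 292, 328 and 370 CPM in young libraries, which overlapped. It fell by 0.25 ± 0.09 on the log2 scale (SE, edgeR adjusted p = 0.0345), a call lost with library sizes alone (−0.02), and its value was 0.064 with the erythroid and neutrophil score. The call was also lost without any 1 of 8 libraries (aged replicates 1, 2, 4 and 5, young replicates 2, 3, 5 and 7), with −0.25 to −0.21 and edgeR adjusted p from 0.051 to 0.0717. Gatm, which makes the precursor of creatine, rose by 1.16 ± 0.14 on the log2 scale (SE, edgeR adjusted p = 1.73e-05), and its value was 0.63 (edgeR adjusted p = 0.0973) with the erythroid and neutrophil score.

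Imprinted genes outside the network were called about as often as genes in general. Of 23 tested, 5 were lower, 5 were higher and 13 were not called, beside 21.6% lower and 24.7% higher over all tested genes, and the median log2 fold change was −0.05, near that of all tested genes. With library sizes alone 9 were higher. Zim1 had the largest fall. Peg12, an intronless gene of the Ndn domain, fell by 1.39 ± 0.14 on the log2 scale (SE, edgeR adjusted p = 5.06e-06). Kcnq1, a potassium channel gene of the same domain as Cdkn1c, fell by 1.37 ± 0.18 (SE, edgeR adjusted p = 3.98e-05) and was at −0.77 (edgeR adjusted p = 0.139) with the erythroid and neutrophil score. Slc22a3, an organic cation transporter beside Igf2r, had the largest rise at 1.97 ± 0.20 (SE, edgeR adjusted p = 4.93e-06). Snrpn followed, and Zrsr1, a splicing factor gene, rose by 0.44 ± 0.06 (SE, edgeR adjusted p = 6.19e-05). The count of lower calls was 8 without aged replicate 4.

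**Figure D4:**
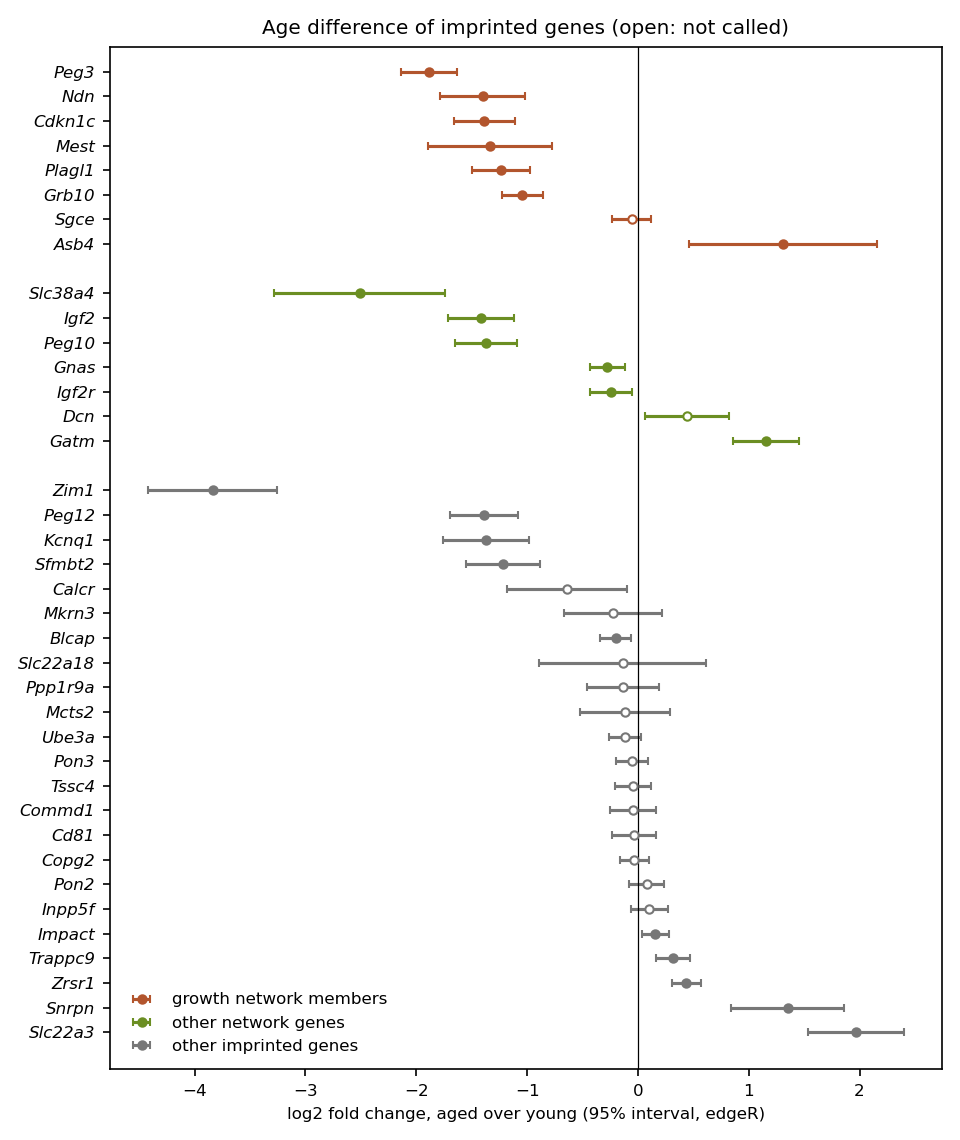
Log2 fold change, aged over young, with 95% intervals from edgeR for the tested growth network genes, other genes of the network and other imprinted genes; filled points were called and open points were not. The first 6 growth network genes lie between −1.88 and −1.04, Sgce at −0.06 and Asb4 at 1.31, while 13 of the 23 other imprinted genes are open.

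Among growth genes that are high in the fetus, 7 of 12 tested were lower, 2 were higher and 3 were not called. Over all tested genes 21.6% were lower and 24.7% higher. The median log2 fold change of the 12 was −0.57. This list, too, was chosen with earlier results of these data known. Sox11, a transcription factor of progenitor cells, fell by 2.90 ± 0.29 on the log2 scale (SE, edgeR adjusted p = 3.56e-06). Igf2bp3, a protein that binds fetal mRNAs including that of Igf2, fell by 2.60 ± 0.41 (SE, edgeR adjusted p = 0.000183), and was at −2.01 (edgeR adjusted p = 0.119) with the erythroid and neutrophil score. Its medians were only 0.138 CPM in aged and 0.816 CPM in young libraries. It passed the filter in 7 of the 13 fits with 1 library left out. Igf2bp3 and Sox11 both passed the count minimum only through the young libraries, where they were higher, so their falls carry that selection. Ptn, a growth factor of cartilage and bone matrix, fell by 1.80 ± 0.20 (SE, edgeR adjusted p = 1.3e-05). On log2(FPKM + 1) the low genes Sox11 and Igf2bp3 were at −0.38 and −0.21 and stayed called. Lin28a, an RNA-binding protein that blocks let-7 maturation, rose by 1.44 ± 0.37 (SE, edgeR adjusted p = 0.00616), and was at −0.99 (edgeR adjusted p = 0.153) with the erythroid and neutrophil score. Hmga2, a chromatin protein of growing mesenchyme, rose by 1.35 ± 0.22 (SE, edgeR adjusted p = 0.000205).

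The signalling partners of the encoded proteins were called in both directions. Of 17 tested, 6 were lower, 4 were higher and 7 were not called, where 46.2% of all tested genes were called in either direction, and the median log2 fold change was 0.01, while with library sizes alone 3 were lower and 10 higher. Hey1, a Notch target gene, fell by 1.41 ± 0.17 on the log2 scale (SE, edgeR adjusted p = 2.03e-05), and was at −1.04 (edgeR adjusted p = 0.0545) with the erythroid and neutrophil score. The insulin receptor substrates on the pathway that Grb10 dampens went opposite ways. Irs1 fell by 0.70 ± 0.10 (SE, edgeR adjusted p = 0.000115) and Irs2 rose by 0.83 ± 0.07 (SE, edgeR adjusted p = 9.73e-07). The p57 relative Cdkn1a fell by 0.67 ± 0.08 (SE, edgeR adjusted p = 1.72e-05). The cyclins Ccne1 and Ccnd1, which p57 can hold back, rose by 1.49 ± 0.24 (SE, edgeR adjusted p = 0.000199) and 0.65 ± 0.12 (SE, edgeR adjusted p = 0.000712). With the erythroid and neutrophil score Irs1 was at −0.31 (edgeR adjusted p = 0.239), Cdkn1a at −0.36 (edgeR adjusted p = 0.102) and Ccne1 at 0.24 (edgeR adjusted p = 0.658). Ccnd1 was at 0.50 (edgeR adjusted p = 0.0791) with the muscle score.

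For each tested growth network gene, 1 gene outside the set had the most similar profile over the 13 libraries, measured as the root mean squared distance between centred log2 CPM values among 12421 candidates. The closest match was Fscn1 to Grb10, at 0.0753, followed by Czib to Sgce at 0.0791. Chn1 lay nearest to Peg3 at a distance of 0.179, Amigo3 to Cdkn1c at 0.182 and Fgfr3 to Plagl1 at 0.191. Efna5 lay nearest to Ndn at 0.228, Epb41l3 to Mest at 0.262 and Chrnb1 to Asb4 at 0.299.

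**Figure D5:**
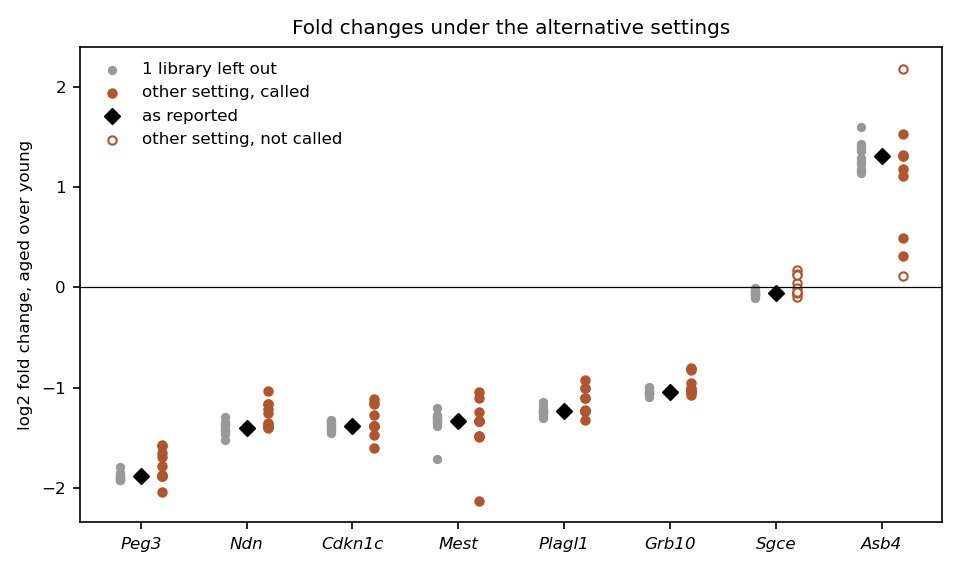
Log2 fold change of the 8 tested genes as reported (diamond), with each library left out in turn (grey) and under the other processing settings (filled where called, open where not). The 6 lower genes lie at −0.81 or lower and stay called under every setting shown, Sgce sits on both sides of 0, and Asb4 lies between 0.12 and 2.19.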

How the data were processed

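Messenger RNA captured on oligo(dT) beads was sequenced in paired, strand-specific reads on a DNBSEQ instrument, per the labels' protocols. The submitters' processing notes name GRCm39 as the build and list RSEM 1.3.1, HISAT2 2.1.0, DESeq2 1.4.5 and Bowtie2 2.3.4.3 without their roles. The authors' table holds, per the file headers, a read count for each gene and library, which is an expected count because 5.3% of values were not whole. The authors also deposited FPKM and TPM, normalised for gene length and depth, in the same table.

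Expected counts were rounded, filtered (filterByExpr, minimum count 10, minimum total 15), scaled by TMM (factors 1.04 to 1.16 in aged and 0.903 to 0.957 in young libraries) and tested with the edgeR 4.0.16 quasi-likelihood test (R 4.3.3, robust fit, Benjamini-Hochberg over 14067 genes, threshold 0.05). The SE is the log2 fold change divided by the square root of F. Ratios used counts + 0.5. Alternatives were other filters, scalings and covariate scores, DESeq2 1.42.0, limma 3.58.1 on FPKM and TPM, a replicate block and each library left out. On simulated counts for 14067 genes the comparison of aged with young recovered 66% of genes changed 1.5-fold and 88% changed 2-fold (50 of each). Of the calls, 3.3% were false. Few genes were changed there, all drawn from genes with higher counts, while 6504 genes were called in the real data. These rates need not hold for the real data or for genes with few counts. No 2 libraries of an age agreed within sampling noise (smallest chi-square per degree of freedom 10.3). Exon overlaps and their lengths come from GENCODE vM21, whose build differs from that of the table, so the lengths may differ for the counted annotation. Library depths are given as ranges, and counts per library are given as ranges for Asb4 and Dlk1 only. Igf2bp3, Sox11, Zim1, Slc38a4 and Slc22a3 also had a median at or below about 1 CPM at 1 age, and their counts are not given. A gene low at 1 age could pass the filter through the other age, as each of these did, and their calls carry that selection.

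Members and gene lists were chosen with earlier results of these data known. Genes named from a list are the called ones with the 3 largest rises and 3 largest falls, plus Igf2, Igf2r, Meg3, Peg10, the domain neighbours, the nearest profile of each gene (mean FPKM of at least 1) and Col2a1 and Col1a1.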

Additional observations from a re-analysis of the deposited data

Results flagged for a closer look

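Of 30 sets of values by gene or ratio and age that were checked for a library standing apart from its group (Dixon's test at the 95% level), 4 had one, where chance gives about 5% of sets. In the aged group, Peg3 was lowest in aged replicate 6 at 42.3 CPM, against 62.4 to 72.7 CPM in the other aged libraries. Mest was highest in the same library at 20.6 CPM, against 4.74 to 8.65 CPM in the other aged libraries. The log2 ratio of Ndn to Snrpn was also highest there, at 0.50 against −0.76 to −0.49 in the other aged libraries. In the young group, Plagl1 was highest in young replicate 5 at 113 CPM, against 65.5 to 83.9 CPM in the other young libraries.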

How the results depend on the processing

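The 6 genes called lower remained called lower in all 24 alternatives (11 settings and 13 fits with 1 library left out), with log2 fold changes of −2.04 to −1.58 for Peg3, −2.13 to −1.05 for Mest, −1.33 to −0.92 for Plagl1, −1.60 to −1.11 for Cdkn1c, −1.07 to −0.81 for Grb10 and −1.40 to −1.03 for Ndn over the 11 settings. The 6 ratios kept their direction and their call on the CPM and FPKM scales and without each library. The number of these genes called higher was 0 with either marker score (muscle, or erythroid and neutrophil) and with a filter of 1 CPM in 6 libraries, where Asb4 was not tested. Sgce was above 0 with library sizes alone (0.17), on log2(FPKM + 0.1) and log2(FPKM + 1) (0.13 for both) and with the erythroid and neutrophil score (0.045). The erythroid markers of that score separated the ages fully, so age differences fitted beside it are poorly determined. With that score, 2448 of all genes were called. Calls were 2 lower and 0 higher among other network genes and 3 lower among other imprinted genes. They were 4 lower and 1 higher among fetal growth genes, and 1 lower and 2 higher among signalling partners. Lin28a was at −0.99, Igf2r at 0.064 and Czib at 0.078 with it. With the muscle score 3634 genes were called, 3 other imprinted genes were higher, and Copg2 was at 0.024. With library sizes alone or on either FPKM scale, 3 other network genes were lower and 2 higher, 3 partners were lower and 10 higher, and 9 (library sizes) or 10 (FPKM) other imprinted genes were higher. Copg2 was then at 0.20, 0.19 (FPKM + 0.1) and 0.17 (FPKM + 1), and Czib at 0.12, 0.075 and 0.072. On log2(TPM + 1), 3 other network genes were lower and 2 higher, and Copg2 was at 0.047. With DESeq2 2 other network genes were higher. Leaving out a library gave 1 to 2 higher calls among other network genes, 2 without aged replicate 1, 2 or 3, and 5 to 8 lower calls among other imprinted genes. The cause of these differences was not tested.

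Same-numbered libraries deviated together weakly in 5 of 6 pairs (correlations 0.11 to 0.26) and not in the pair numbered 4 (−0.12). Only aged replicates 1 and 2 correlated best with the young library of their own number, and the numbers were not taken to pair the libraries. With the replicate number as a block, 5785 genes were called, 6 of the growth network genes lower and 1 higher. Among other network genes 4 were lower and 2 higher, and the Igf2r call was lost (−0.22, edgeR adjusted p = 0.0589). Asb4 and Dlk1 rest on few counts, and the labels give no batch to set against age.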
